A study of Homo sapiens with 6 samples.

Results

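The region chr18:60000000-61000000 of hg19, in band 18q21, holds the whole of PHLPP1 and BCL2, and DEK peaks that overlap it were taken from both DEK precipitations. It held 20 of the 15017 peaks of replicate 1 and 107 of the 152779 peaks of replicate 2, and where peaks of both lists met by at least 1 bp they formed 12 of the 4453 shared intervals. The region was chosen by its number of shared intervals, counted in these same lists, so that number and the densities that follow from it are given as a description, without a test. Peaks were assigned to PHLPP1 (chr18:60382774-60647666, plus strand) and BCL2 (chr18:60790579-60987361, minus strand) by gene body in GENCODE release 44 on GRCh37. Of the 12 shared intervals, 7 lay in PHLPP1 and 0 in BCL2, 4 lay between both genes, and 1 lay in ZCCHC2 upstream of PHLPP1.

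The binding of the DEK protein was measured by ChIP-seq in U937, an established human myeloid cell line that was grown without any treatment or genetic change. Crosslinked chromatin was precipitated with a DEK antibody in 2 independent experiments and with an antibody to H3K4me3, a histone mark of active promoters, in 2 others, and peaks were called in each DEK precipitation alone. The files give for each DEK peak its position, its tags (sequenced reads counted in the peak), its fold enrichment over the local background, a false discovery rate and a score, for which the negative log10 p of the peak caller is multiplied by 10. The lists do not give the total reads of a library. The authors state only a minimum number of reads per sample, so the exact depth of each library is unknown. The tags in peaks were 988363 in replicate 1 and 4172422 in replicate 2. Each antibody has 1 list per precipitation, so no spread between replicates could be put beside a peak, and peaks of 1 region share their library and are not replicates of each other.

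DEK is an abundant chromatin protein that binds DNA and histones and alters the topology of chromatin. BCL2 encodes the founding member of a protein family that governs the permeability of the mitochondrial outer membrane, and it keeps cells alive by holding the pro-apoptotic members in check. PHLPP1 encodes a phosphatase that removes an activating phosphate from the kinase AKT and so lowers survival signalling, and PHLPP1 and BCL2 lie side by side with their 3′ ends facing each other. The other coding genes that overlap the region are TNFRSF11A, the receptor RANK, ZCCHC2, a zinc finger gene, and KDSR, an enzyme of sphingolipid synthesis, with RELCH and VPS4B as the nearest coding genes outside.

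The reference sequence of GRCh37 (plus strand, 300 bases) is given for the summit of the richest replicate 1 peak inside BCL2 (chr18:60805420-60805719, BCL2 intron 2), a peak that overlapped H3K4me3 of both lists. Capitals mark AGGAAG, the core of the motif of PU.1, on either strand.
richest replicate 1 peak in BCL2: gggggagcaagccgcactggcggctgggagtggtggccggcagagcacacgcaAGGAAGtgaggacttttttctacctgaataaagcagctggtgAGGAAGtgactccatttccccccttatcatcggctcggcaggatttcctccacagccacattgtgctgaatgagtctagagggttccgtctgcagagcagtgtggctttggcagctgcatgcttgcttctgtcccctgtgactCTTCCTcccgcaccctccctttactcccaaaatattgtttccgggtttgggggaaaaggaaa
It holds the PU.1 core letters 3 times. This peak had no partner in replicate 2, and the share of such peaks with these letters is not given here. Among the shared intervals of the region they were in 4 of 12, beside 27.9% of all shared intervals.

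Along the region, replicate 1 peaks were few and lay from ZCCHC2 to intron 2 of BCL2, whereas replicate 2 peaks were spread over the whole of it. In PHLPP1 replicate 1 had 8 peaks with 22 to 90 tags (median 33), and replicate 2 had 36 peaks with 13 to 54 tags (median 22.5). In BCL2 the peaks of replicate 1 were 3, with 72, 77 and 105 tags, and those of replicate 2 were 17, with 13 to 40 tags (median 17). The stretch of 142.9 kb between the genes held 5 replicate 1 peaks with 31 to 471 tags (median 120) and 17 replicate 2 peaks with 15 to 49 tags (median 26). Relative to length, PHLPP1 had 3.02 replicate 1 peaks and 13.6 replicate 2 peaks per 100 kb, and BCL2 had 1.52 and 8.64. Both lists thus placed more peaks per 100 kb in PHLPP1 than in BCL2. However, 5 of the 8 replicate 1 peaks of PHLPP1 and 0 of the 3 of BCL2 had a partner in replicate 2. The choice of the region by shared intervals therefore favours PHLPP1 here, and nothing is read from this difference. The replicate 1 peaks with the most tags lay from the 3′ side of PHLPP1 into BCL2.

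**Figure D1:**
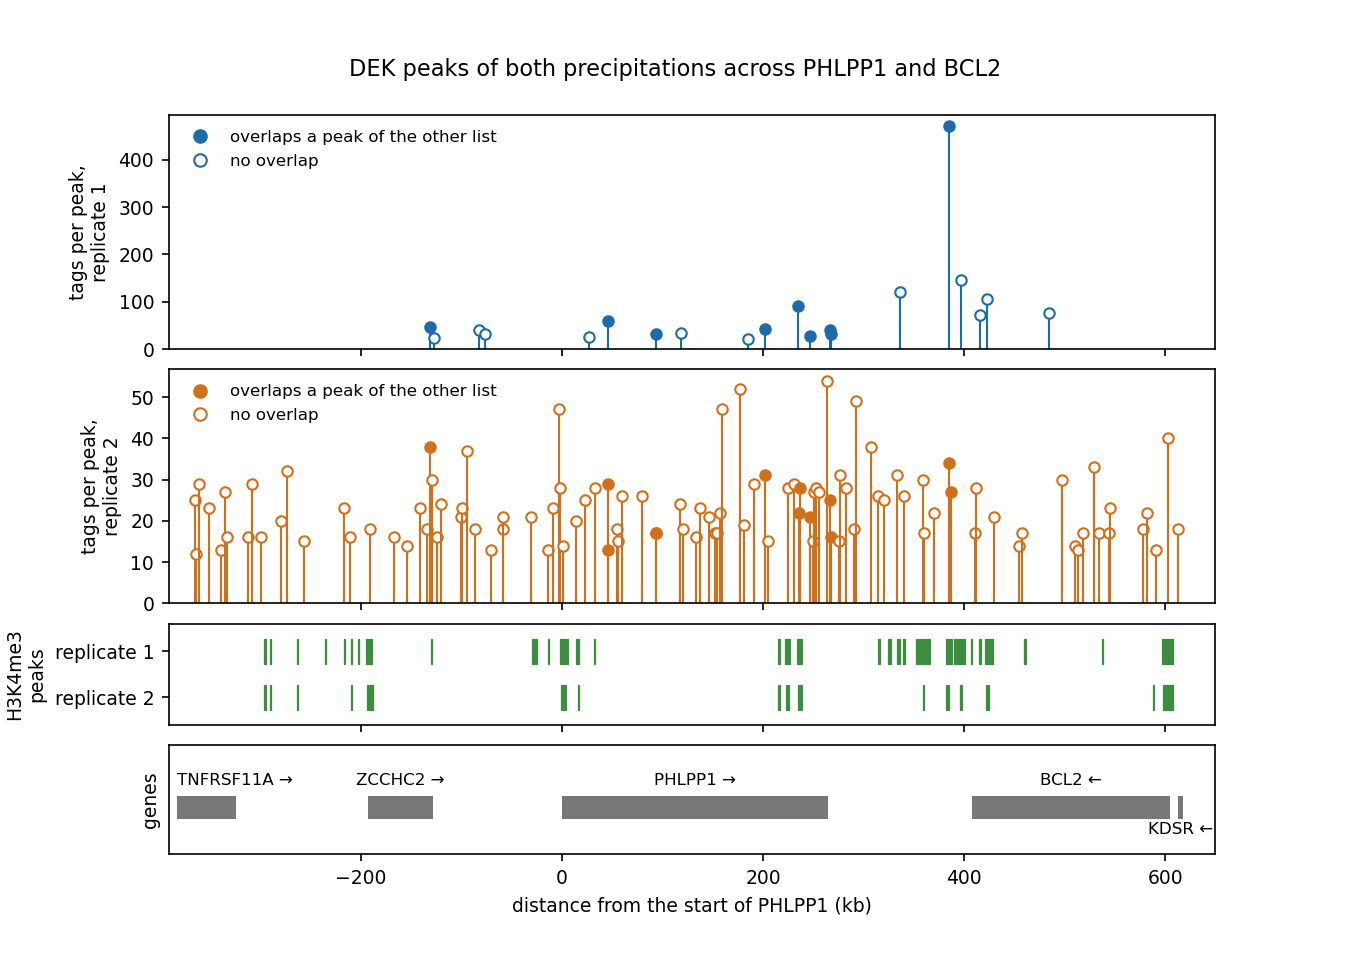
Tags per DEK peak of replicate 1 (top) and replicate 2 (second), H3K4me3 peaks of both replicates as bars (below them) and coding gene bodies with their strand (bottom) against the distance from the start of PHLPP1 in kb; each point is 1 peak, filled where it overlaps a peak of the other list, and the tag axes differ. The highest replicate 1 peak, with 471 tags, stands between PHLPP1 and BCL2, and no point over the BCL2 body is filled in either list.

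In the region 9 of the 20 replicate 1 peaks, or 45% (95% Wilson interval 25.8% to 65.8%), had a partner in replicate 2, beside 27.4% of the whole list. Of the replicate 2 peaks, 12 of 107, or 11.2% (6.53% to 18.6%), had a partner, beside 2.9% of the whole list. These intervals cover counting error only. The sharing is part of what the region was chosen for and nothing is read from it. The peaks behind the shared intervals were weak in at least 1 list: with a score of at least 100 in both lists, 0 shared intervals remained in the region and 13 in the rest of chromosome 18, or 0.176 per Mb there. When the longer replicate 2 list was reduced to its highest scores until it was as long as the replicate 1 list, 0 remained in the region and 16 in the rest, or 0.217 per Mb. At such low densities a count of 0 in 1 Mb does not show that the region differs from the rest. None of the 10 replicate 2 peaks with the highest scores in the region had a partner, and 13 replicate 2 peaks scored above the highest shared one (128.7). The top one of these, at chr18:60674630-60675973 between the genes, had 49 tags at a fold enrichment of 6.87 (score 192.02). In replicate 1, 5 of the 10 peaks with the highest scores had a partner. The false discovery rate given by the peak caller was 100% for all 20 replicate 1 peaks and 0.75% to 2.31% for the 107 replicate 2 peaks. Taken as given, this rate supports none of the replicate 1 peaks of the region, and every shared interval includes 1 of these peaks. The rate also did not separate the replicate 1 peaks from each other, and it was not set beside the whole lists.

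The 7 shared intervals of PHLPP1 all lay in introns. Intervals 2 (chr18:60427933-60428339) and 3 (chr18:60428479-60428990) lay in intron 1, 139 bp apart, within 1 peak of replicate 1 that had 60 tags and a score of 78.76. Replicate 2 gave a peak to each, with 13 tags and a score of 57.22 for interval 2 and with 29 tags and a score of 128.7 for interval 3. Interval 4 (chr18:60476436-60477010), also in intron 1, had 31 tags in replicate 1 and 17 in replicate 2. Its fold enrichment was 5.02 in replicate 1 and 3.49 in replicate 2. Interval 5 (chr18:60584652-60585500) in intron 9 had 42 tags in replicate 1 with a score of 75.64 and 31 tags in replicate 2 with a score of 115.63. The summits of both peaks lay 36 bp apart, and they were 24 to 50 bp apart at intervals 2, 5, 8, 9 and 10, while at intervals 3, 6, 7 and 12, which lie in wide replicate 1 peaks with another shared interval, they were 641 to 2236 bp apart.

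Further along PHLPP1, interval 6 (chr18:60617883-60618648) and interval 7 (chr18:60618678-60618725), only 48 bp long, lay in intron 12 within 1 replicate 1 peak of 90 tags, the richest of that list in PHLPP1. Replicate 2 had 22 tags in the peak of interval 6 and 28 in that of interval 7, whose scores of 66.05 and 52.94 were low in its list. Both intervals overlapped H3K4me3 in both lists, and no other shared interval of PHLPP1 did. Interval 8 (chr18:60629405-60630027) in intron 13 had 28 tags in replicate 1 and 21 in replicate 2, with fold enrichments of 4.83 and 5.62.

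Just past the 3′ end of PHLPP1 lay a further pair. Interval 9 (chr18:60648778-60649583) began 1112 bp past the end of the gene and had 41 tags in replicate 1 and 25 in replicate 2. Interval 10 (chr18:60649675-60650105) began 2009 bp past the end and had 31 and 16 tags. They are between genes by the annotation used and were not counted in PHLPP1. Interval 1 (chr18:60251466-60252419) had 46 tags in replicate 1 and 38 in replicate 2. It lay inside the gene body of ZCCHC2, past the last exon of its canonical transcript. Intervals 1 to 10 thus rested on 8 peaks of replicate 1 with 28 to 90 tags and on 10 peaks of replicate 2 with 13 to 38 tags. Per 1000 bp of peak these had 39.8 to 47.0 tags in replicate 1 and 25.8 to 56.6 in replicate 2, so the replicate 1 peaks were nearly alike in density.

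The richest DEK peak of the region lay between the genes on the side of BCL2, and its score was high in replicate 1 only. Intervals 11 (chr18:60766587-60767731) and 12 (chr18:60769490-60770125) fell within 1 replicate 1 peak at chr18:60764846-60770125, which was 5280 bp wide and had 471 tags, a fold enrichment of 16.21 and a score of 753.01. It had more tags and a higher score than 99.8% of the replicate 1 peaks genome-wide. The replicate 2 peaks at the same place had 34 tags and a score of 60.95 for interval 11 and 27 tags and a score of 51.66 for interval 12. The score of the first was above only 22.1% of the replicate 2 list, although its tags were above 80.7%. Interval 11 overlapped H3K4me3 in both lists and interval 12 in H3K4me3 replicate 1 alone. They ended 22848 bp and 20454 bp from the 3′ end of BCL2, so they enter the count for BCL2 (2 in place of 0) when 30000 bp on either side are added to the gene.

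**Figure D2:**
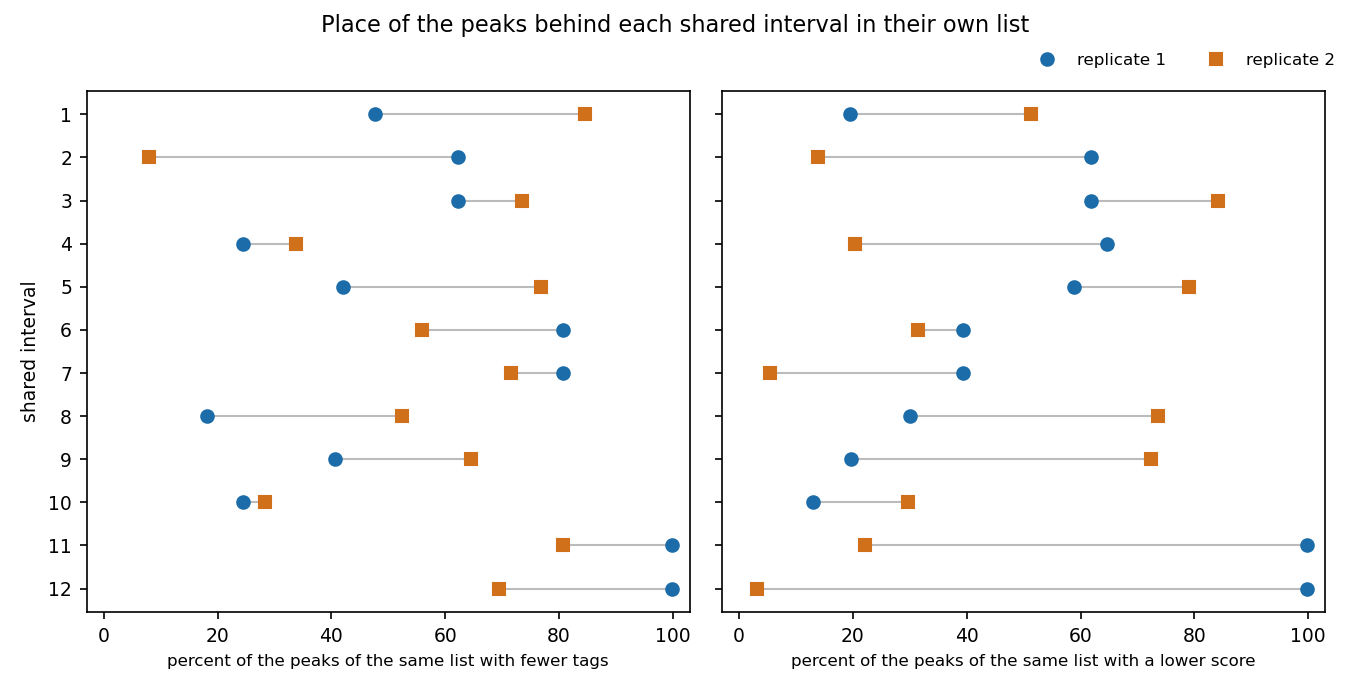
Percent of the peaks of the same list with fewer tags (left) and with a lower score (right) than the peak behind each of the 12 shared intervals, with replicate 1 as circles and replicate 2 as squares joined by a line; intervals 2 and 3, 6 and 7, and 11 and 12 share a replicate 1 peak. For interval 11 the replicate 1 peak stands above 99.8% of its list by score and the replicate 2 peak above 22.1%.

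Inside BCL2 none of the 3 replicate 1 peaks met any of the 17 replicate 2 peaks. Peaks of both lists without a shared interval were found in 30.5% of the coding genes of 100 kb or more, and most replicate 1 peaks of the whole list have no partner, so nothing particular to BCL2 is read from this. Replicate 1 had its 3 peaks in intron 2, the long intron of the gene, at chr18:60797934-60799470 with 72 tags, at chr18:60804748-60806110 with 105 tags and at chr18:60865521-60867507 with 77 tags. The peak with 105 tags was 6.55 times over its local background (score 130.69), overlapped H3K4me3 in both lists, and its middle lay 215 bp from the start of a BCL2 transcript annotated inside the gene. The other two had scores of 54.86 and 50.51. Near the 5′ end of BCL2 it was replicate 2 that had a peak, at chr18:60985009-60986076 over exon 2, with 40 tags, a score of 130.89 and H3K4me3 in both lists, and its middle was 357 bp from a BCL2 transcript start. Replicate 1 had none there. The replicate 2 peak with the highest score in BCL2 (177.72, 33 tags) was at chr18:60910962-60911960 in intron 2, without H3K4me3. A further replicate 1 peak without a partner, at chr18:60778897-60780287, had 147 tags at a fold enrichment of 12.54 (score 392.94), overlapped H3K4me3 in both lists and had its middle 10987 bp past the 3′ end of BCL2. The replicate 1 peak at chr18:60716987-60719990, with 120 tags, lay on H3K4me3 of replicate 1 alone and also had no partner.

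At the start of PHLPP1 no replicate 1 peak was listed. Replicate 2 had peaks on either side of the start, at chr18:60380833-60381777 with 28 tags and at chr18:60383921-60384556 over exon 1 with 14 tags, and both overlapped H3K4me3 in both lists. The replicate 2 peak with the most tags in PHLPP1 (54, with a score of 164.98) was at chr18:60645542-60646967 over the last exon, exon 17. The one with the highest score (178.37, with 26 tags and a fold enrichment of 8.23) was at chr18:60462199-60462838 in intron 1. Neither overlapped H3K4me3 or a replicate 1 peak. The middle of 0 of the 12 shared intervals was within 1 kb of a transcription start site (TSS), beside 26.2% of all shared intervals. The distance to the nearest TSS was 2904 to 76370 bp with a median of 37161 bp, and the median over all shared intervals was 5058 bp.

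H3K4me3 had 49 peaks in the region in replicate 1 and 22 in replicate 2. Of the DEK replicate 1 peaks 4 of 20, or 20% (Wilson interval 8.07% to 41.6%), overlapped H3K4me3 of both lists, beside 32.8% of the whole list. The replicate 2 share was 10 of 107, or 9.35% (5.16% to 16.4%), beside 7.74%. For the shared intervals it was 3 of 12, or 25% (8.89% to 53.2%), beside 33.6%. These are descriptions of few peaks that share a library, and no difference from the whole lists was tested. The 4 replicate 1 peaks on H3K4me3 had a median of 126 tags (90 to 471) and the other 16 a median of 37.5 (22 to 120), beside 72 and 39 over the whole list. In replicate 2 the medians were 28 and 21 in the region and 34 and 19 over the list. A wider peak can hold more tags, and these tags were not set per 1000 bp of peak. By tags alone the peaks on H3K4me3 had the higher median in both lists. In replicate 1 the groups of the region overlapped only between 90 and 120 tags. By score the median on H3K4me3 was also higher in replicate 1 of the region (261.8 on H3K4me3 and 54.96 off it). In replicate 2 of the region it was not, with 63.7 on H3K4me3 and 74.2 off it, while over the whole replicate 2 list it was 89.5 and 77.6.

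In size the peaks of the region were near those of their lists. The median was 41.5 tags in replicate 1 (list 47) and 22 in replicate 2 (list 20). Median widths were 981.5 bp (list 1016) in replicate 1 and 640 bp (list 697) in replicate 2. Median scores were 59.4 (list 68.8) and 72.0 (list 78.3). Shared and unshared peaks of the region had median tags of 42 and 40 in replicate 1 and 26 and 21 in replicate 2, a ratio of 1.24 that became 1.01 per 1000 bp of peak.

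Against the rest of chromosome 18, counted over sequenced bases, replicate 1 had 20 peaks per Mb and 5.02 elsewhere, a ratio of 3.98 (95% interval 2.40 to 6.24, exact binomial). Replicate 2 had 107 and 49.8, a ratio of 2.15 (1.76 to 2.61). Shared intervals were at 12 and 1.38 per Mb, a ratio of 8.67 (4.34 to 15.8), which follows from the choice of the region. Each shared interval needs a peak in both lists, so the choice of the region also favours many peaks in each list alone. The ratios of the lists are therefore descriptions too. Their 95% intervals take no account of this choice and treat peaks as independent, which neighbouring peaks are not. Peaks of replicate 1 covered 2.77% of the region and 0.550% of the rest, and those of replicate 2 covered 7.86% and 3.77%. Among 73 windows of 1 Mb, the region had the most shared intervals (12, with 0 to 11 and a median of 1 in the other 72), the most replicate 1 peaks together with 1 other window (20, median of the others 3), and ranked 6 by replicate 2 peaks (107, with 9 to 236 and a median of 38). It also had the most intervals of H3K4me3 in both lists, again with 1 other window (25, median 5). The window next in shared intervals, with 11, holds MBP, a myelin gene that also has transcripts in blood cells, and the one after it, with 9, holds LDLRAD4. The part of the many H3K4me3 intervals in the DEK count of the region was not tested.

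**Figure D3:**
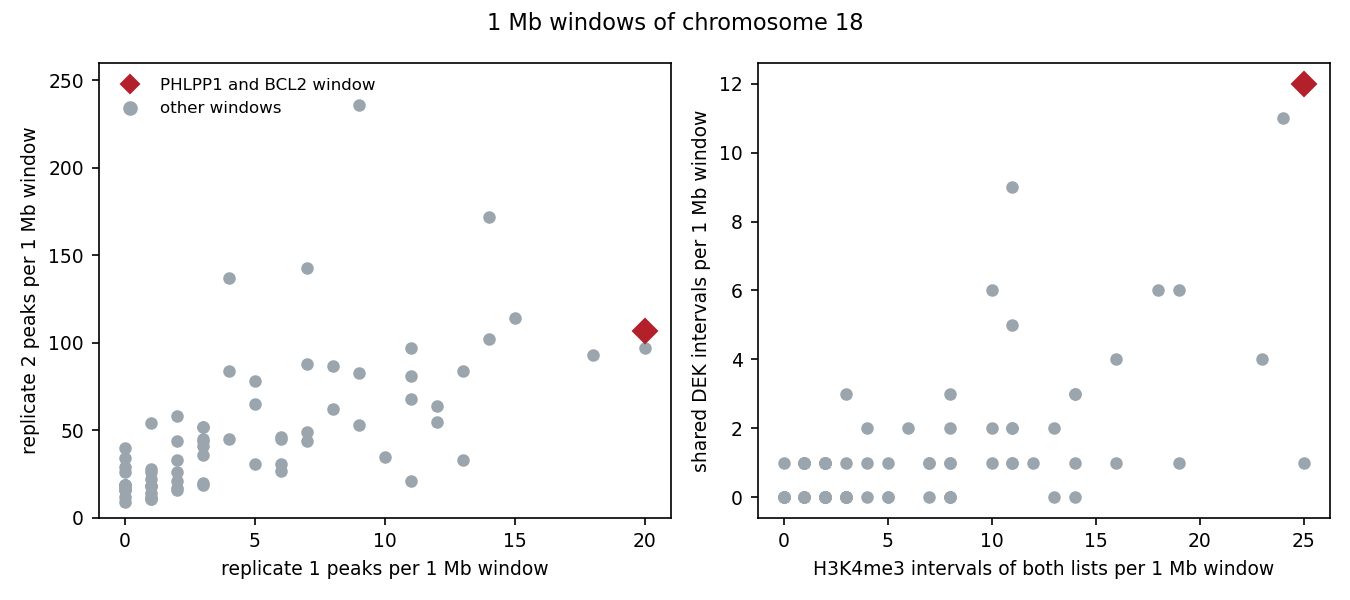
Peaks of replicate 1 and replicate 2 (left) and intervals of H3K4me3 in both lists and shared DEK intervals (right) in 73 windows of 1 Mb on chromosome 18; each point is 1 window and the red diamond is the window of PHLPP1 and BCL2. The diamond is at 20 and 107 peaks on the left, where 5 windows have more replicate 2 peaks, and at 25 and 12 intervals on the right.

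The edges of the region were arbitrary. The nearest shared interval before it, at chr18:59996338-59996928 in TNFRSF11A, lay 3072 bp away with 52 tags in replicate 1 and 23 in replicate 2. The nearest one after it, at chr18:61034452-61035501 over the start of KDSR, lay 34452 bp away with 105 and 51 tags and H3K4me3 in both lists. Counted over its whole body, KDSR thus had 1 shared interval, as did TNFRSF11A, ZCCHC2 and RELCH, while VPS4B had 0.

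Among all 20163 coding genes, 11.6% had a shared interval in the gene body, and among the 3666 of 100 kb or more it was 26.2%. PHLPP1 with 7 (2.64 per 100 kb) tied at rank 5 by number and was at rank 16 of the long genes by density, where the median gene had 0. Its peaks ranked lower in each list alone, at 76 for replicate 1 and 382 for replicate 2. BCL2 had peaks of both lists at ranks 567 and 1004 of these 3666 genes, at 1.52 per 100 kb in replicate 1 (median 0.381) and 8.64 in replicate 2 (median 4.93). Its densities in both lists were thus above those of the median long gene, although it had no shared interval. Among the genes most like PHLPP1, with at least 7 shared intervals, were CSMD1 (11), RASA3 and CDH23 (9 each) and MBP, SEPTIN9, ZMIZ1, LDLRAD4, HIVEP3 and RUNX1 (7 each). RASA3 encodes a regulator of RAS and RAP GTPases and RUNX1 a transcription factor of blood cells. The densities of those named ran from 0.534 per 100 kb in CSMD1 to 5.96 in RASA3.

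**Figure D4:**
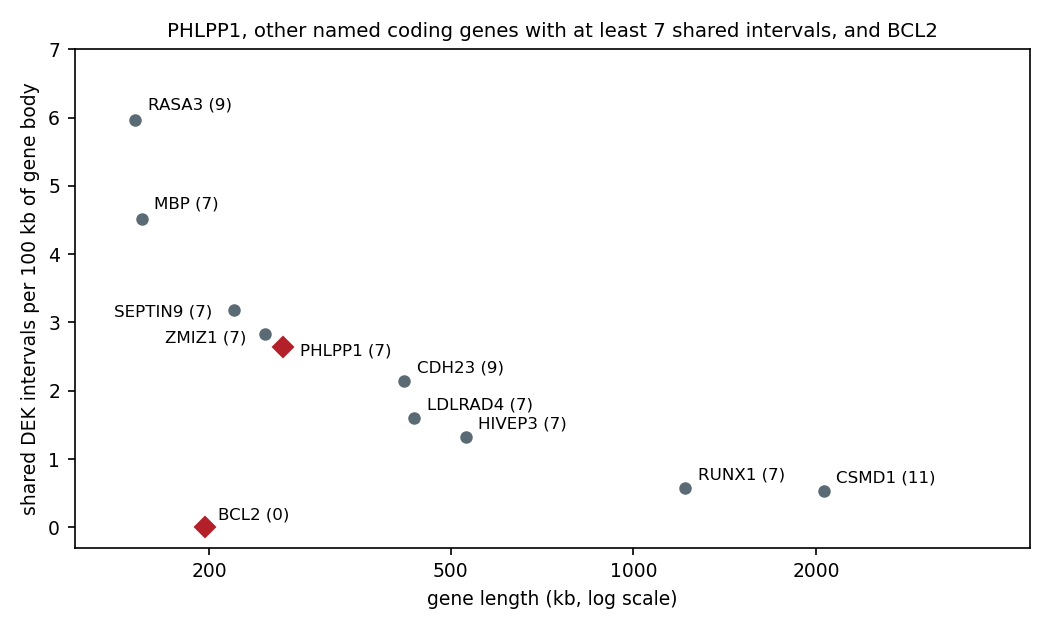
Shared DEK intervals per 100 kb of gene body against gene length in kb (log scale) for PHLPP1, the other coding genes named with at least 7 shared intervals, and BCL2; each point is 1 gene with its number of shared intervals in brackets, and red diamonds are PHLPP1 and BCL2. PHLPP1 is at 2.64 per 100 kb, between RASA3 at 5.96 and CSMD1 at 0.534, and BCL2 is at 0.

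In the BCL2 family 4 of 17 genes had a shared interval in the gene body, beside the 11.6% of all coding genes. All 4 are pro-apoptotic members that contain only the BH3 domain: BID and BBC3 with 2 each, and PMAIP1 and BMF with 1 each. The other BH3-only genes listed, BCL2L11, BAD, BIK and HRK, had 0, as had BAX, BAK1 and BOK, whose products permeabilise the membrane. The survival genes BCL2, MCL1, BCL2L1, BCL2L2, BCL2A1 and BCL2L10 had 0 too, as most coding genes did. Replicate 2 alone had 7 peaks in MCL1 and 3 in BCL2L1, and neither list had a peak in BCL2A1. A replicate 2 peak in the gene body was common, in 16 of the 17 family genes and in 16449 of all 20163 coding genes. With so few genes no difference between these groups of the family is read from the counts. PMAIP1, which encodes NOXA and also lies on chromosome 18, had its 1 shared interval within 1 kb of the TSS, from a replicate 1 peak of 77 tags and a replicate 2 peak of 31. Across the family 2 genes had a shared interval within 1 kb of a TSS (BBC3 and PMAIP1), beside 4.38% of all coding genes. H3K4me3 of both lists was within 1 kb of a TSS in 14 of the 17, BCL2 included, beside 58.6%.

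In the AKT pathway 5 of 28 genes had a shared interval in the body. The share was 11.6% of all coding genes and 26.2% of those of 100 kb or more. Among the 5 were PHLPP1 with 7, RPTOR, a subunit of the mTORC1 complex, with 6, GSK3B, a kinase inhibited by AKT, with 4, and the phosphatase INPP5D with 2. PHLPP2, the paralog of PHLPP1, had 0, with 7 peaks in replicate 2 and 0 in replicate 1. A shared interval within 1 kb of a TSS was found for 3 genes, GSK3A and GSK3B among them, beside 4.38% of all coding genes. All 28 had H3K4me3 there, beside 58.6%. A further 10 genes had peaks in both lists that did not meet in the body, beside 12.2% of all coding genes and 30.5% of those of 100 kb or more. The median gene length was 104 kb in this list and 18.8 kb in the BCL2 family, and a longer gene body can hold more intervals. No difference between the lists, or from the genome, is therefore read from these counts.

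In the sequence of the shared intervals, the motif letters searched were those of factors of myeloid cells and of promoters, in the 300 bases around each middle and on both strands. AGGAAG (PU.1 core) was in 4 of 12, beside 27.9% of all shared intervals, and TGTGGT (RUNX1 core) in 5 of 12, beside 22%. GGGCGG (SP1) was in 2 of 12, beside 23.6%, and CACGTG (USF1) in 0 of 12, beside 5.61%. The 12 intervals had a median GC content of 48.4%, and all shared intervals one of 50.1%.

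A word of the Alu repeat, TGTAATCCCAGC or GCTGGGATTACA on the other strand, was searched after sequences of the region had been seen. It was in 5 of the 12 shared intervals (3, 4, 5, 8 and 12), beside 22.3% of all shared intervals. In PHLPP1 it was in 4 of the 7 and elsewhere in the region in 1 of the 5. Of all peaks of the region it was in 5 of 20 in replicate 1, beside 13.5% of the list, and in 38 of 107 in replicate 2, beside 28.3%. Within the genes, 17 of 36 replicate 2 peaks of PHLPP1 and 7 of 17 of BCL2 held it. Among all consecutive stretches of 300 bases, 5.18% on chromosome 18 and 9.09% in the region did. Alu is the most abundant short repeat of the human genome, and the peaks of both lists in the region and the sequence of the region itself held this word more often than chromosome 18 as a whole.

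Repeated sequence was also counted as the share of words of 36 bases that occur elsewhere in the genome. More than 50% of the words were repeated in 1 of the 12 shared intervals (interval 3, at 58.9%), beside 10.1% of all shared intervals, and in 0 of the 20 replicate 1 peaks, beside 4.9%. In replicate 2 it was 14 of 107, beside 10.1% of its peaks on chromosome 18. Without the repeated interval the region had 11 shared intervals. Below that cutoff repeated words were still common. The median share was 21.1% in the 12 shared intervals (15.5% in all shared intervals). It was 6.91% in the replicate 1 peaks of the region (5.94% in the list). In the replicate 2 peaks of the region it was 26.0%, beside 26.6% in those of chromosome 18. The peak of 471 tags between the genes and the replicate 1 peak of 105 tags in BCL2 held few repeated words (5.47% and 0%). Within the former, interval 11 held 0% and interval 12 held 47.8%. Bowtie 2 was run at default parameters, at which a read that fits several places equally well is assigned to a single place among them, and the part of this in the peaks was not tested.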

How the data were processed

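DEK ChIP-seq of U937 cells was analysed from the deposited peak lists of both DEK precipitations and of both H3K4me3 precipitations; non-precipitated chromatin was not analysed here. The authors used Bowtie 2 for alignment, with hg19 as the genome, and MACS 1.4.1 for peaks of every DEK precipitation alone, both at default parameters. For every DEK peak the deposited lists give a count of tags, not scaled to depth, a score (the negative log10 p of MACS multiplied by 10), a fold enrichment (a ratio over the local background of MACS) and a false discovery rate in percent. The deposited H3K4me3 lists give positions only, and the settings used for that mark are not given in the sources used here.

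Peaks overlapping the region were intersected at an overlap of at least 1 bp and annotated with GENCODE release 44 on GRCh37, which has the sequence of hg19. H3K4me3 of both lists means the intersection of these lists (27902 intervals). Densities are per Mb of sequenced bases, and windows of chromosome 18 needed at least 900000 of them. Gene counts, motifs and repeated words used the autosomes and X and Y. Shares have 95% Wilson intervals. The scripts used Python 3.11.15, NumPy 2.4.6, SciPy 1.17.1 and Numba 0.67.0, and 12 of 12 checks on simulated data passed.

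The genes, gene lists and motifs were chosen with earlier results of these data known. Named genes are PHLPP1, BCL2, genes overlapping the region and their nearest coding neighbours, genes of the BCL2 family and AKT pathway lists with a shared interval, and up to 10 genes with at least as many shared intervals as PHLPP1. Other genes of the BCL2 family, PHLPP2 and GSK3A were named after their values were seen. The alternatives tried were other gene borders, covered bases, gaps included, repeats left out, each H3K4me3 list alone, lists cut to equal length, a minimum score and an overlap of at least 50%. No result was tested, since each list comes from 1 precipitation and the region was chosen on these lists. Some genes and sequences are not reported here.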

Additional observations from a re-analysis of the deposited data

How the results depend on the processing

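The 12 shared intervals of the region became 6 when at least 50% of each peak had to be overlapped, 0 at a score of at least 100 in both lists, and 0 with the replicate 2 list as long as that of replicate 1. PHLPP1 went from 7 to 3 and to 0 under the first and second of these, and the density ratio of shared intervals went from 8.67 to 0 at the score of at least 100, where the rest of the chromosome held only 0.176 per Mb and a 0 in 1 Mb does not show a change. BCL2 went from 0 to 2 with 30000 bp added on either side, an alternative chosen after seeing the data, as was the addition of 2000 bp on either side, which left 0. The replicate 2 ratio of shared to unshared median tags went from 1.24 to 1.01 per 1000 bp. With 1 H3K4me3 replicate left out, the share of peaks on H3K4me3 ran from 20% to 30% in DEK replicate 1, from 9.35% to 16.8% in DEK replicate 2 and from 25% to 33.3% in shared intervals. The other 35 of 44 alternatives stayed within the limits set, among them all 10 for the density of each list. None of these 10 removes the choice of the region on the same lists. Without DEK replicate 1 or DEK replicate 2 no shared interval can be formed. The cause of these changes was not tested, beyond fewer peaks entering at a stricter threshold. No paired analysis was possible because no result comes from a test. The exact depth of each library is unknown, and the small number of peaks limits every share.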
